A study of Mus musculus with 11 samples.

Results

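The neurons of mice carrying the P301S transgene were compared with those of mice without it, using all 7 libraries with P301S+ in the genotype against the 4 libraries of ikbkb+/+ mice. Nuclei with 300 to 8000 detected genes and at most 5% mitochondrial UMIs (unique molecular identifiers, 1 per captured RNA molecule) were taken as excitatory neurons when they held 2 or more UMIs of Slc17a7, the vesicular glutamate transporter, and at most 1 of Gad1 and Gad2 together. They were taken as inhibitory neurons when they held 3 or more UMIs of Gad1 and Gad2, the enzymes that make GABA, at most 1 of Slc17a7, and at most 3 of Rgs9 and Rarb, which mark striatal projection neurons. This left 20466 excitatory and 9053 inhibitory neurons, together 29519 of 112539 nuclei. Of these, 12652 excitatory and 5694 inhibitory neurons came from P301S mice.

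The nuclei were isolated from frozen cortex, 1 library per mouse. The non-transgenic mice were ikbkb+/+ (4 libraries, 9.8 to 10.85 months old). The P301S mice were ikbkb+/+;P301S+ (3 libraries, 9.15 to 10.75 months), ikbkb-/-;P301S+ (2 libraries, 8.39 and 9.15 months) and ikbkbCA;P301S+ (2 libraries, 10.85 and 9.8 months). They are called here intact P301S, Ikbkb-knockout P301S and active-IKKb P301S. Ikbkb encodes IKKb, the kinase that switches on NF-kB. By the study's methods the deletion and the constitutively active form were made in microglia with a tamoxifen-inducible Cre at Cx3cr1, and the mice came from 2 breeding lines, floxed Ikbkb and IkbkbCA. The line of each library is not labelled as such and was read from its title, where IKKbCtrl and IKKbKO were taken as floxed Ikbkb and IKKbWT and IKKbCA as IkbkbCA, so the values within a line rest on that reading. Thus 4 of the 7 P301S mice and 0 of the 4 non-transgenic mice carried a changed IKKb, and in those 4 the transgene and the Cre alleles cannot be told apart. The labels give all mice as female, whereas the methods describe RNA-seq of males only. Xist, the RNA that coats the inactive X chromosome, lay between 750 and 1419 CPM (a gene's UMIs scaled to a common total per sum) in the excitatory neurons of every library.

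P301S mice, also called PS19, express human tau with a mutation of inherited frontotemporal dementia, driven by the promoter of the mouse prion protein gene. Tau binds and stabilises axonal microtubules. In this line it becomes hyperphosphorylated, forms filaments in neurons and leads with age to loss of synapses and nerve cells, most of all in hippocampus and entorhinal cortex. The matrices count mouse genes, and RNA of the human transgene was not analysed here.

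Sums of UMIs per library ranged from 14.7 to 31.3 M (mega, SI prefix) in excitatory and from 5.17 to 9.92 M in inhibitory neurons, over 1297 to 2413 and 538 to 1040 nuclei. Pairs of libraries shared at most 45 cell barcodes, 0.425% of the smaller library. A doublet score called 8.42% of all nuclei, 7.96% of excitatory and 9.82% of inhibitory neurons, and these nuclei were kept. Both classes carried markers of their own. Neurod6, a transcription factor of excitatory neurons, lay between 11.6 and 16.3 CPM in excitatory and between 0.916 and 2.76 in inhibitory neurons. Slc32a1, the vesicular GABA transporter, lay between 25.4 and 63.2 CPM in inhibitory and between 0.475 and 1.39 in excitatory neurons. Lhx6, a transcription factor of interneurons, lay between 33.3 and 59.9 in inhibitory and between 0.265 and 0.693 in excitatory neurons. Over all their markers, the 7 of the excitatory class summed to 2061 to 2481 CPM in excitatory and 461 to 610 in inhibitory neurons. The 9 of the inhibitory class summed to 7832 to 14080 in inhibitory and 200 to 326 in excitatory neurons. The 7 include Slc17a7 and the 9 include Gad1 and Gad2, so the gates themselves fix part of these contrasts. Neurod6, Slc32a1 and Lhx6 set no gate. Striatal projection neuron markers summed to 1146 to 2269 CPM in excitatory and to 1169 to 1861 in inhibitory neurons. The gates depend on depth. Just outside them, 6230 non-transgenic and 10430 P301S nuclei held 1 UMI of Slc17a7, and 865 and 1646 held 2 of Gad1 and Gad2. Just inside, 3755 non-transgenic and 5836 P301S excitatory neurons held exactly 2 UMIs of Slc17a7, and 695 and 1172 inhibitory neurons exactly 3 of Gad1 and Gad2.

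In excitatory neurons 7 of 16584 genes tested differed between P301S and non-transgenic mice, 0.0422% of them. The call needed an absolute log2 fold change over 0.1 and, in edgeR's quasi-likelihood test, a p under 0.05 after Benjamini-Hochberg adjustment. Higher in P301S were the long non-coding RNAs Gm43049, 4930590L14Rik and Gm32754 and the protein-coding genes Haus7, Alpk1 and Rwdd3. Lower was Gabra2, the alpha2 subunit of the GABA-A receptor. In inhibitory neurons 1 of 14171 genes was called, 0.00706%, and it was again Gm43049. Gm43049, Alpk1, Rwdd3 and Gabra2 were named as called genes, and Mapt and Prnp as the mouse counterparts of the transgene's coding part and promoter. Other genes outside the gene lists averaged under 5 CPM or were not called, and were named after their values were seen. A looser count, genes whose libraries did not overlap between the arms, gave 91 of 16584 in excitatory neurons (0.549%, 57 higher and 34 lower in P301S) and 139 of 14171 in inhibitory neurons (0.981%, 77 higher and 62 lower). Before adjustment, p was under 0.05 for 703 and 1017 genes.

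Gm43049, a long intergenic non-coding RNA, was close to absent from non-transgenic neurons. The 4 non-transgenic libraries held 2, 1, 2 and 0 of its UMIs in excitatory neurons, and the 7 P301S libraries 180 to 338, median 221. No library overlapped. The pooled ratio per UMI was 196 (exact 95% interval 84.0 to 606, counting error only), and edgeR's adjusted p was 1.88e-07. In inhibitory neurons 0, 1, 0 and 0 UMIs stood against 35 to 101, a ratio of 246 (43.9 to 9722), adjusted p 0.000344. In CPM of excitatory neurons, intact P301S mice averaged 11.4 ± 2.61 (SD, n = 3), Ikbkb-knockout P301S 7.36 ± 0.276 (n = 2) and active-IKKb P301S 9.89 ± 1.86 (n = 2). All 3 genotypes passed the test against the same 4 non-transgenic libraries (adjusted p 2.24e-07, 1.45e-06 and 5.07e-07), and differences among the 3 were not tested. Within the floxed Ikbkb line (2 against 4 libraries) and the IkbkbCA line (2 against 3) it was called in excitatory neurons (adjusted p 0.00100 and 0.00113) and not in inhibitory neurons (0.0925 and 0.626). Over all 28 alternative fits, these lines included, its log2 fold change in inhibitory neurons lay between 6.32 and 8.94.

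A pair of further long non-coding RNAs next to it rose in the same libraries. 4930590L14Rik had 0, 1, 0 and 0 UMIs in non-transgenic excitatory neurons and 25 to 55 in P301S, median 39, a ratio of 164 (29.2 to 6509.7), adjusted p 2.15e-06. Gm32754 had 1, 0, 0 and 0 UMIs against 16 to 50, median 24, a ratio of 109 (19.3 to 4316), adjusted p 0.000219. Neither overlapped between the arms. Within each breeding line 4930590L14Rik was called (adjusted p 0.00666 and 0.0384) and Gm32754 was not (0.0516 and 0.313). In inhibitory neurons both had 0 UMIs in all 4 non-transgenic libraries and were too low to be tested. 4930590L14Rik held 58 UMIs in P301S (5 to 13 per library) and Gm32754 43 (1 to 10 per library). These were 10.8-fold and 8.02-fold above an assumed floor of 3 counts over the non-transgenic group. The exact 95% lower limits of the ratios were 8.52 and 6.25. The fitted fold changes of these RNAs depend on the small count added before the logarithm and are not bounds.

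The same RNAs were also seen outside the neuron gates. In the 83020 other nuclei, 5 of 18882 genes were called (0.0265%), namely Gm43049, 4930590L14Rik, Gm32754, Rwdd3 and Prn, all higher in P301S. Gm43049 held 7 UMIs in non-transgenic and 3145 in P301S libraries there, a ratio of 235 (114 to 584). 4930590L14Rik held 0 against 497 UMIs, 86.5-fold above a floor of 3 counts (exact 95% lower limit 70.1), and Gm32754 5 against 318. Other nuclei include neurons just outside the gates as well as glia, and whether they differ from neurons in these effects was not tested.

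The starts of these genes are shown because the non-coding RNAs changed together, and Alpk1 and Rwdd3 lie on the same chromosome. The sequences are 300 bases of the RefSeq annotation on GRCm38.p6, 250 before and 50 after the start, read 5′ to 3′ on the strand of the gene. Capitals mark the TATA motif (TATAAA), the CAAT-box motif (CCAAT) or the GC-box motif (GGGCGG) on either strand, and in Gm32754 copies of the first and second overlap. They lie at chr3:140917269-140917568 (minus strand), chr3:140951585-140951884 (plus), chr3:127780478-127780777 (minus) and chr3:121171646-121171945 (minus), in the order printed. Gm43049 has no entry.
Gm32754: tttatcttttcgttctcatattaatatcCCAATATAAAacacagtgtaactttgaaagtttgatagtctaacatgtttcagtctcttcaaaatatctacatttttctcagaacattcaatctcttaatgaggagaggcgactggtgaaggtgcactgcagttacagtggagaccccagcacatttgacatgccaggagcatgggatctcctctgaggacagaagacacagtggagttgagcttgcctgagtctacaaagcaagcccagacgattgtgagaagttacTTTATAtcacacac
4930590L14Rik: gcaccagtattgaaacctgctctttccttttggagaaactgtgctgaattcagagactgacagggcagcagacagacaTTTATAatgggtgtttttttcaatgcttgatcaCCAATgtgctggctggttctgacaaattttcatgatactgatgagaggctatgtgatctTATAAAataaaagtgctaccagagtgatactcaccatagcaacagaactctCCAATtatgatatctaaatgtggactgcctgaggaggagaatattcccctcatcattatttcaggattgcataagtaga
Alpk1: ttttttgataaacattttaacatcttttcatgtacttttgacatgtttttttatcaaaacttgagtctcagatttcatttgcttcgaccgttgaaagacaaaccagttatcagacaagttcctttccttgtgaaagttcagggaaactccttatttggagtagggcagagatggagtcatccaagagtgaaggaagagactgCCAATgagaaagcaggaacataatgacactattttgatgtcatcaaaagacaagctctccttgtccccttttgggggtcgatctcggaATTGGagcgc
Rwdd3: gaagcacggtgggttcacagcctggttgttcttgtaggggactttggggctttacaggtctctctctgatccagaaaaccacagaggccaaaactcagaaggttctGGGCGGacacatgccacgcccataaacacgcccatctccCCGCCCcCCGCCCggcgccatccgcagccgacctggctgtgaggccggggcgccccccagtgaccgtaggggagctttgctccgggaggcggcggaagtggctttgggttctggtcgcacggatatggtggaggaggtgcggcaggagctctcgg
Over 32851 promoters of this length, 13.62% held TATAAA, 37.41% CCAAT and 35.66% GGGCGG, and the median number of CpG dinucleotides was 7. The starts of Gm32754 and 4930590L14Rik each held 2 copies of TATAAA and had 3 and 0 CpG. That of Alpk1 held 2 copies of CCAAT and 5 CpG, and that of Rwdd3 3 copies of GGGCGG and 20 CpG. A match describes these letters and not a bound site.

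Alpk1 encodes alpha-kinase 1, which senses the bacterial sugar ADP-heptose and signals through TIFA to NF-kB. In excitatory neurons it stood at 8.56, 8.67, 10.5 and 11.2 CPM in non-transgenic mice and at 16.8 to 26.1 in P301S, median 21.5. The lowest P301S library lay above the highest non-transgenic one. The log2 fold change was 1.14 ± 0.126 (SE), adjusted p 0.00111. Within the floxed Ikbkb line alone it was 1.17 (adjusted p 0.0215) and within the IkbkbCA line alone 1.16 (0.0351). In inhibitory neurons its level was lower and the arms overlapped, 1.49, 2.64, 1.58 and 4.28 against 3.91 to 7.54. The log2 fold change of 1.12 ± 0.290 was not called there (adjusted p 0.553). In other nuclei Alpk1 lay at 15.6 to 28.3 against 18.3 to 30.7 CPM, with a log2 fold change of 0.23 ± 0.183 (adjusted p 0.921). The difference between the neuron classes was 0.04 ± 0.260 (adjusted p 1).

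Haus7 encodes a subunit of the augmin complex, which nucleates new microtubules on existing ones. Its level in excitatory neurons was 1.63, 1.66, 1.40 and 1.46 CPM in non-transgenic mice and 3.18 to 4.62 in P301S, median 3.84, without overlap. The log2 fold change was 1.34 ± 0.138, adjusted p 0.000563. Within the floxed Ikbkb line it was 1.32 (adjusted p 0.158) and within the IkbkbCA line 1.35 (0.342), neither called. In inhibitory neurons it was 0.92 ± 0.205 and not called (adjusted p 0.434), at 2.40 to 4.35 against 5.01 to 8.95 CPM without overlap. Haus7 lies on the X chromosome at chrX:73437315-73459044.

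Rwdd3 encodes RSUME, a protein that promotes conjugation of SUMO. Non-transgenic excitatory neurons had 6.03, 6.25, 5.08 and 4.78 CPM and P301S 7.88 to 10.1, median 9.64. The log2 fold change was 0.74 ± 0.107, adjusted p 0.0210. In inhibitory neurons the arms were likewise apart, 8.36, 10.1, 6.92 and 8.43 against 12.2 to 14.5, but the log2 fold change of 0.67 ± 0.107 was not called by edgeR (adjusted p 0.13) but was by DESeq2 (adjusted p 0.00215). In other nuclei it was 0.78 ± 0.0948 (adjusted p 0.00935). The excitatory call was lost when any of 6 of the 11 libraries was left out (non-transgenic 1, 3 or 4, P301S 1, or either Ikbkb-knockout P301S), with adjusted p over all 11 such fits from 0.0146 to 0.152 and a log2 fold change between 0.68 and 0.80. It was 0.69 within the floxed Ikbkb line (adjusted p 0.412) and 0.76 within the IkbkbCA line (0.423). Against the same 4 non-transgenic libraries, edgeR did not call Rwdd3 in intact, Ikbkb-knockout or active-IKKb P301S alone. The log2 fold changes there were 0.75, 0.86 and 0.59 (adjusted p 0.133, 0.0657 and 0.321), each from fewer P301S libraries.

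Gabra2 was the only gene called lower by edgeR in excitatory neurons. Excitatory neurons of non-transgenic mice had 288, 269, 324 and 298 CPM and those of P301S mice 214 to 243, median 224. The arms did not overlap, and the log2 fold change was -0.40 ± 0.0591, adjusted p 0.0211. It kept its direction in all 11 fits with 1 library left out (-0.44 to -0.35) and lost its call in 8 of them (all but those without non-transgenic 2, P301S 2 or P301S 3), where adjusted p reached 0.152. Within the floxed Ikbkb line it was -0.33 (adjusted p 0.804) and within the IkbkbCA line -0.46 (0.404). Among excitatory neurons with 0 UMIs of Cux2, a marker of upper layers, the log2 fold change was -0.52 (adjusted p 0.0265). With 2 or more UMIs of Cux2 it was -0.27 (adjusted p 0.714). The difference between these subsets was not tested, and their layers were not assigned. Inhibitory neurons had 196 to 322 CPM against 177 to 276, with a log2 fold change of -0.10 ± 0.140 (adjusted p 0.910). The effects in the 2 classes differed by -0.30 ± 0.137 at an unadjusted p of 0.0447 and an adjusted p of 0.895. In other nuclei Gabra2 lay at 285.7 to 337.0 against 225.0 to 285.1 CPM, without overlap. Its log2 fold change there was -0.31 ± 0.0730 and was not called (adjusted p 0.901).

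**Figure D1:**
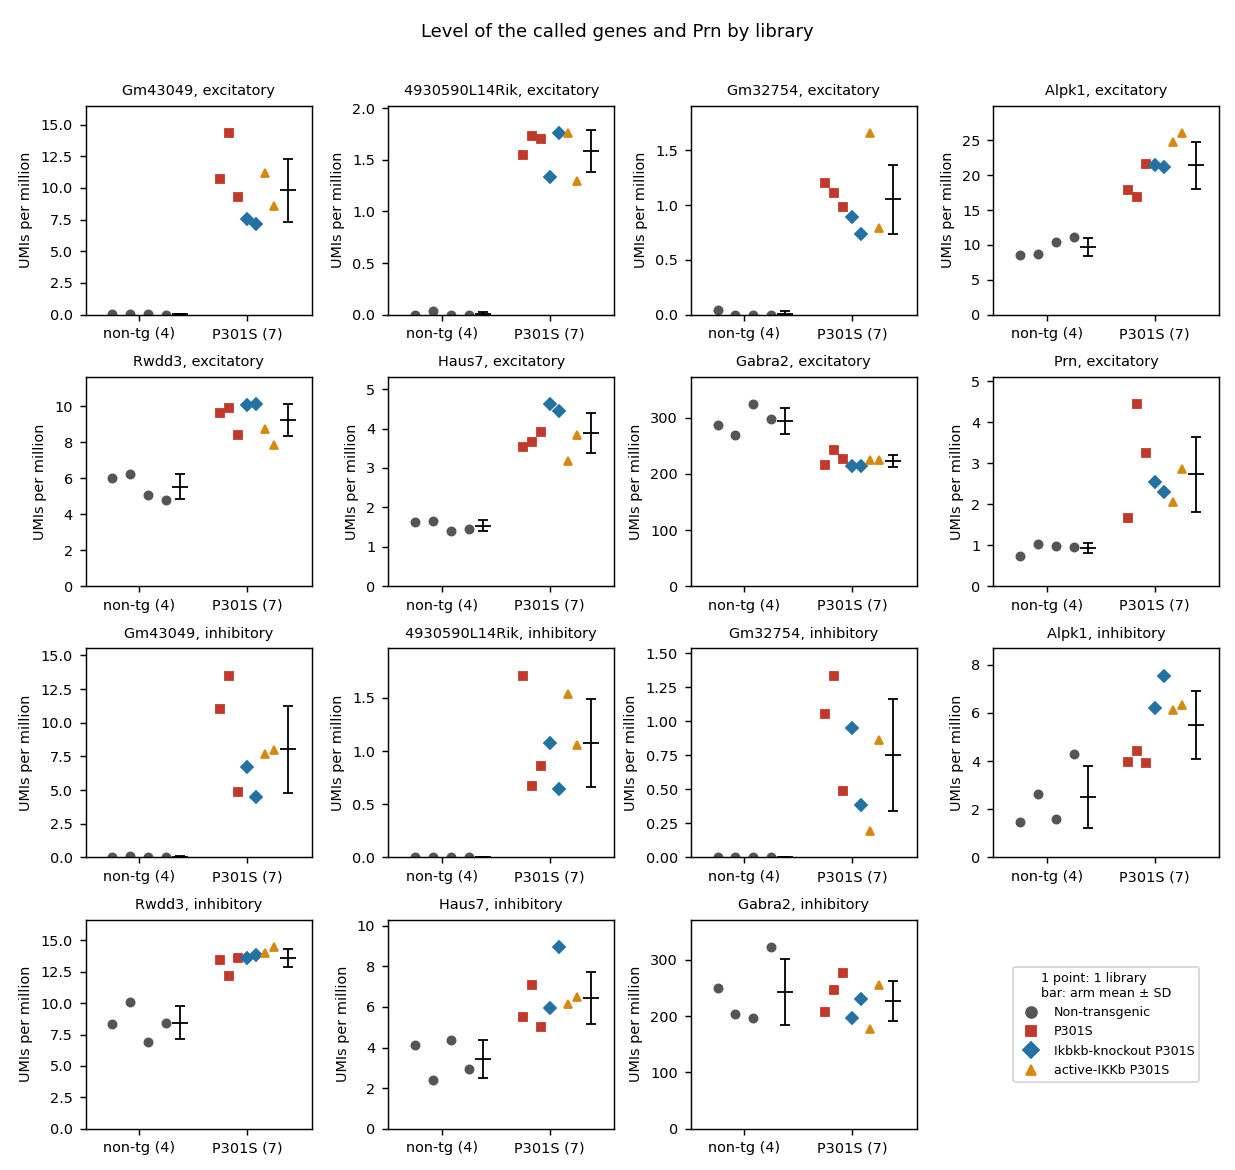
Level of the called genes and Prn in CPM (y axis, linear, from 0), with 1 point per library, 4 non-transgenic and 7 P301S, marked by genotype, and bars for the arm mean ± SD. The 3 non-coding RNAs lie at or near 0 in every non-transgenic library. Alpk1, Rwdd3 and Haus7 are separated in excitatory neurons, and Rwdd3 and Haus7 also in inhibitory neurons. Gabra2 is separated in excitatory but not in inhibitory neurons.

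5 of the 7 genes called in excitatory neurons lie on chromosome 3, which holds 835 of the tested genes. On all other chromosomes 2 of 15738 were called. Gm43049 lies at chr3:140692038-140760704 (mm10), 4930590L14Rik and Gm32754 start 0.260 and 0.213 Mb further along, and Alpk1 (chr3:127670310-127780527) and Rwdd3 (chr3:121155398-121171695) start at -13.0 and -19.5 Mb from it. In these distances a start is the lower coordinate of the gene on either strand, not the start of transcription. Within 20 Mb of Gm43049, 192 genes were tested and 5 called. The libraries of the arms did not overlap for 10 of the 835 genes on chromosome 3 (1.2%) and for 81 elsewhere (0.515%), and in inhibitory neurons for 7 of 709 (0.987%) and 132 of 13452 (0.981%). The 10 include the 5 called genes, which had already singled out this chromosome. The excitatory shares are therefore not independent of those calls.

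Neighbours of these genes were fitted in both directions. With all libraries, the filter on low counts and the arm as the 1 term, edgeR called none but the 5 genes above. Manba, a lysosomal mannosidase, had a log2 fold change of 0.26, Clca3a2 of 0.89 and the non-coding Gm42997 of -0.97 in excitatory neurons, each without overlap and none called by edgeR (adjusted p 0.982, 0.982 and 0.387). DESeq2 called Gm42997. Unc5c, a netrin receptor whose lower coordinate lies 0.773 Mb beyond that of Gm43049, had log2 fold changes of -0.38 in excitatory and -0.76 in inhibitory neurons. Where the transgene lies and which mouse strain each copy of chromosome 3 came from are not given in the sources used here, so neither could be set against these positions.

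**Figure D2:**
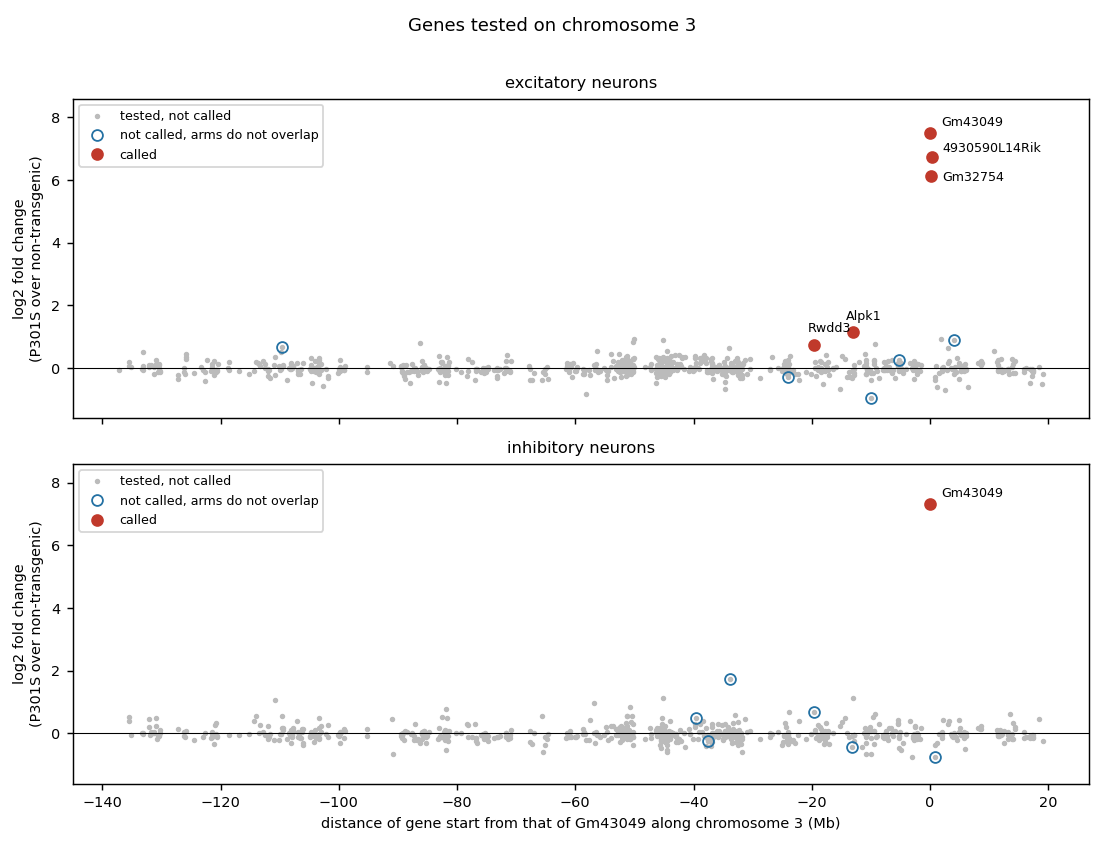
Log2 fold change (y axis, P301S over non-transgenic) of every tested gene on chromosome 3 against the distance of its start from that of Gm43049 (x axis, Mb), in excitatory neurons (top) and inhibitory neurons (bottom). A start is here the lower coordinate of the gene on either strand. Called genes are filled red, and ringed genes did not overlap between the arms but were not called. The 3 non-coding RNAs stand at 6.14 to 7.49 at one place, with Alpk1 and Rwdd3 at -13.0 and -19.5 Mb with 1.14 and 0.74.

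The mouse genes of tau and prion protein were examined next. RNA of the transgene that matches them was not told apart from their own. Mapt, mouse tau, was 477 to 597 CPM in non-transgenic and 517 to 613 in P301S excitatory neurons, with a log2 fold change of 0.12 (95% interval -0.03 to 0.27, adjusted p 0.982). In inhibitory neurons it was 417 to 487 against 436 to 523, 0.13 (-0.02 to 0.27, adjusted p 0.738). Prnp was too low to be tested in either neuron class, at 0.119 to 0.228 against 0.0662 to 0.431 in excitatory neurons. In other nuclei it was tested and not called, at 0.0667 to 0.121 against 0.173 to 0.328 CPM without overlap, a log2 fold change of 1.45 ± 0.270 (adjusted p 0.303). Prn, annotated as a read-through of Prnp and Prnd on the same strand, stood at 0.733, 1.03, 0.989 and 0.956 in non-transgenic excitatory neurons and at 1.65 to 4.43 in P301S, median 2.53, with no overlap. Its log2 fold change of 1.52 ± 0.251 narrowly missed the threshold (adjusted p 0.0610), while DESeq2 called it (adjusted p 1.55e-05). In inhibitory neurons it was 1.06 ± 0.408 (adjusted p 0.675) and in the other nuclei it was called, with a log2 fold change of 1.29 (adjusted p 0.0424). Reads in the stretch shared by Prn and Prnp cannot be told apart, and how they were counted was not examined. The low counts of Prnp are therefore no measure of how strongly it is expressed. The start of Prn, chr2:131909678-131909977 (plus strand), is shown with the same motifs in capitals. The promoter of the transgene was taken from the prion protein gene, Prnp, whose annotated start (131909928) lies within this stretch.
Prn: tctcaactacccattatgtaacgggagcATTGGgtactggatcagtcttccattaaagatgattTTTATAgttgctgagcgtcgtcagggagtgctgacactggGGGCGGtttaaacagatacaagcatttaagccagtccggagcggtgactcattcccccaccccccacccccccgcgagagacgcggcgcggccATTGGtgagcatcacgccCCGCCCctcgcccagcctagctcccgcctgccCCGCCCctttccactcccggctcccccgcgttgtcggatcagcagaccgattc
It held 3 copies of GGGCGG, 2 of CCAAT, 1 of TATAAA and 22 CpG.

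In inhibitory neurons the 8 genes of the lowest p after Gm43049 and Rwdd3 were Unc5c, Ppargc1a, Whrn, Cntnap4, Pdlim3, Rin2, Cdh20 and Ptgfrn. With all libraries, the filter on low counts and the arm as the 1 term, edgeR called none of them, whereas DESeq2 called all but Pdlim3 and Ptgfrn. Unc5c stood at 804, 933, 853 and 574 CPM in non-transgenic mice and at 396 to 542 in P301S, median 450, with a log2 fold change of -0.76 ± 0.128 (adjusted p 0.13). Without non-transgenic 4, its lowest control, it was called (-0.89, adjusted p 0.00901), as it was without the filter and among neurons with at most 1 UMI of Adarb2. Cntnap4, a neurexin-like protein of interneuron synapses, was 610, 557, 590 and 530 against 359 to 465, a log2 fold change of -0.44 ± 0.0784 (adjusted p 0.135). Ppargc1a, which encodes the mitochondrial regulator PGC-1alpha and is abundant in parvalbumin interneurons, was 165 to 168 against 122 to 142, -0.32 ± 0.0545 (adjusted p 0.13). All 3 were without overlap between the arms.

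Of the others, Cdh20, a cadherin, had a log2 fold change of -0.28 (adjusted p 0.311) and Pdlim3, an actin-associated protein, of -0.79 (0.183). Whrn, a scaffold protein, stood at 0.42 (0.135), Rin2, a Rab5 exchange factor, at 0.46 (0.266) and Ptgfrn at 0.49 (0.313). Each of these 5 was also without overlap. DESeq2 called 10 genes in these sums, Gm43049, Rwdd3, Unc5c, Cntnap4, Ppargc1a, Cdh20, Whrn, Rin2, Mef2c and Map6. In excitatory neurons Cntnap4 had a log2 fold change of 0.11 (81.9 to 96.8 against 66.3 to 112 CPM) and Ppargc1a of -0.15 (72.9 to 82.4 against 61.9 to 81.0).

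**Figure D3:**
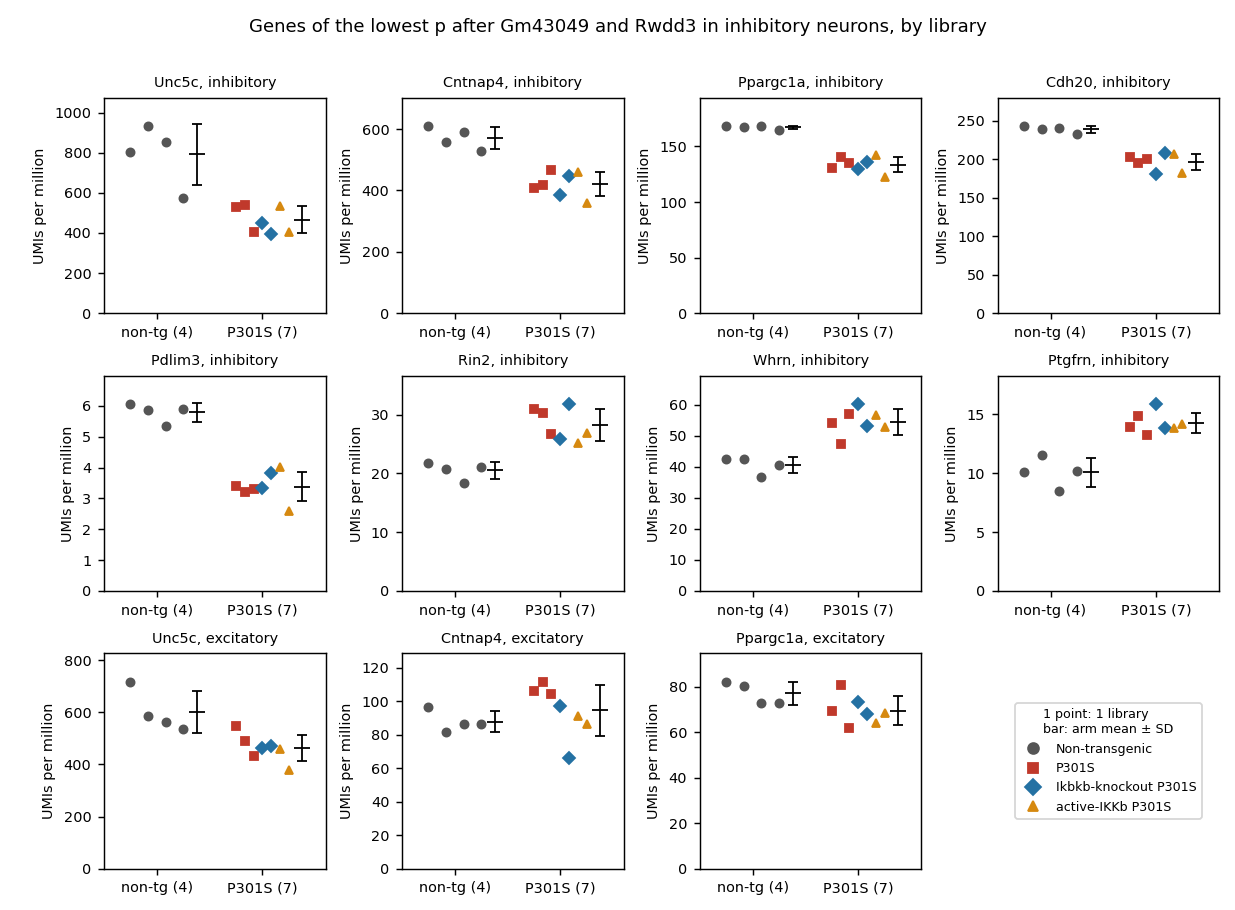
Level in CPM (y axis, linear, from 0) of the 8 genes with the lowest p after Gm43049 and Rwdd3 in inhibitory neurons, and of 3 of them in excitatory neurons, with 1 point per library and bars for the arm mean ± SD. In inhibitory neurons the arms are apart for all 8, beside 0.981% of all genes tested, but the 8 were picked by p from these same sums. With the filter on low counts and the arm as the 1 term over all libraries, edgeR called none of them, and DESeq2 called 6. Cntnap4 overlaps in excitatory neurons.

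The test of the difference between excitatory and inhibitory neurons called 0 of 15783 genes (0%) in edgeR, and 870 passed 0.05 before adjustment. The effect on Cntnap4 differed by 0.55 ± 0.13 (excitatory minus inhibitory, unadjusted p 0.000736, adjusted p 0.832), and this gene alone was called when Ikbkb-knockout P301S 2 was left out. For Unc5c the difference was 0.39 ± 0.117 (adjusted p 0.888), for Haus7 0.43 ± 0.228 (0.895), for Gm43049 -0.07 ± 0.645 (1) and for Rwdd3 0.06 ± 0.132 (0.985).

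24 lists of neuronal and stress genes held 601 genes. In excitatory neurons 558 were tested and 1 was called, Gabra2, while 32 (5.73%) had an unadjusted p under 0.05 beside 4.24% of all genes. In inhibitory neurons 551 were tested and 0 called by edgeR, with 59 (10.7%) under 0.05 beside 7.18%. The 95% interval lay wholly within 0.5 of 0 on the log2 scale for 431 and 381 of them. The 24 tested tau kinases and phosphatases, among them those that add and remove phosphate at tau, spanned -0.11 to 0.10 in excitatory and -0.28 to 0.22 in inhibitory neurons, where 1 had a p under 0.05 before adjustment, lower in P301S. The 22 genes of the unfolded protein response had a median of -0.03, the 27 of autophagy and lysosome 0.01, the 30 of the nuclear-encoded respiratory chain -0.03 and the 34 of transmitter release -0.03, beside 0.01 over all genes. For glutamate receptors and scaffolds (49 genes) it was -0.04, and 3 had an unadjusted p under 0.05, all lower in P301S. In inhibitory neurons the medians of these 5 lists were -0.07, 0.01, -0.07, -0.03 and 0.0013, in the same order, and 4 respiratory chain genes had an unadjusted p under 0.05, all lower. Of 19 genes of interferon response and antigen presentation, 11 were tested in excitatory and 10 in inhibitory neurons. All 11 were fitted higher (median 0.15, 2 under 0.05 before adjustment), as were all 10 (0.22, none under 0.05), with 0 called. A low gene can pass the filter through the arm where it is higher, so these counts of direction are not independent of it. Sums of the tested genes overlapped, at 59.6 to 67.8 CPM against 62.6 to 75.9 in excitatory neurons. In inhibitory neurons they were 55.1 to 66.9 against 54.9 to 66.0.

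Genes that neurons switch on when they fire gave the lowest median of these lists in excitatory neurons. Of 30 tested, 0 were called, 29 were fitted lower in P301S and 10 had an unadjusted p under 0.05, beside 4.24% of all genes, all lower, with a median log2 fold change of -0.26. Their adjusted p were 0.982 or more. Fos, an early transcription factor, was 5.09 to 10.1 CPM in non-transgenic mice and 1.71 to 6.90 in P301S, a log2 fold change of -0.95 ± 0.287. Junb was 11.1 to 29.0 against 3.49 to 18.4, -0.97 ± 0.324. Npas4, specific to activity in neurons, was 17.2 to 30.2 against 6.09 to 17.7, -0.75 ± 0.227, and Egr1 was 32.0 to 50.1 against 12 to 41.3, -0.72 ± 0.232. All 4 overlapped between the arms. Egr2 alone of the 30 did not, beside 0.549% of all genes, at 1.18 to 1.68 against 0.308 to 1.08, with a log2 fold change of -0.68 ± 0.251. Arc, Bdnf and Homer1, later products of activity, had log2 fold changes of -0.50, -0.22 and -0.22, and Sik1 alone was fitted higher (0.05). These genes are expressed together and are not independent of one another. In inhibitory neurons 29 were tested, 0 were called, 0 had an unadjusted p under 0.05, and the median was -0.15. The times of day and the handling before tissue was taken are not given per mouse in the labels.

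**Figure D4:**
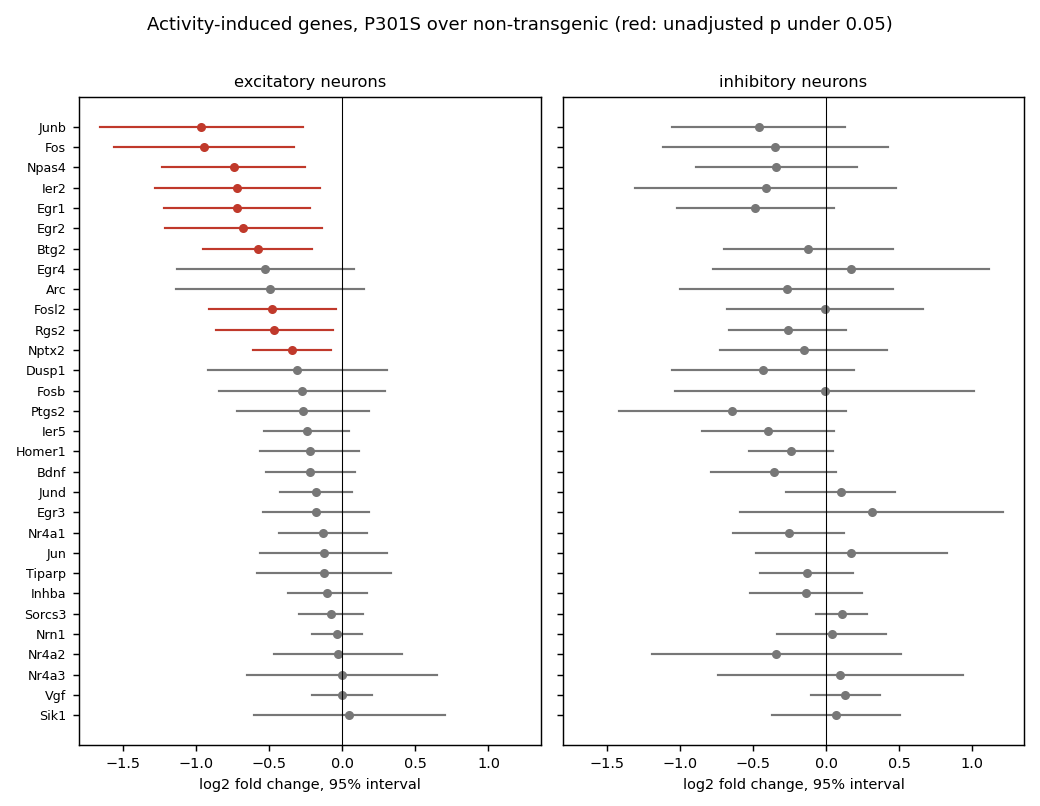
Log2 fold change (x axis, P301S over non-transgenic, with 95% interval) of 30 activity-induced genes in excitatory neurons (left) and of the 29 tested in inhibitory neurons (right). Red marks an unadjusted p under 0.05, which 10 genes had on the left and 0 on the right, and no gene was called.

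In inhibitory neurons the axon guidance and adhesion list (50 genes tested) had 4 higher and 10 lower genes whose p was under 0.05 before adjustment, with a median of -0.07. Beside Unc5c and Cntnap4 the lower ones without overlap were Sema3c, a secreted guidance cue (58.9 to 66.5 against 35.2 to 58.6 CPM, log2 fold change -0.37), and Cdh12, a cadherin (-0.25). Over all lists, 12 of the 551 genes (2.18%) did not overlap in inhibitory neurons, beside 0.981% of all genes tested. Of 33 potassium and HCN channels 5 were lower and 2 higher at that p, and Kcnh7 (-0.34), Kcnq5 (-0.25) and Kcnj3 (-0.38) did not overlap. Syn2, a synaptic vesicle protein, stood at -0.26 and Ndufs1, of respiratory complex I, at -0.23, also without overlap. Map6, which stabilises microtubules, stood at 0.25 (102 to 119 against 125 to 139). With all libraries, the filter on low counts and the arm as the 1 term, edgeR called none of these genes (adjusted p 0.13 to 0.629).

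Markers of other cell types were counted in the same sums. Microglial markers were fitted higher in P301S excitatory neurons for 10 of 10 genes (median log2 fold change 0.60, 0 called) and summed to 32.6 to 51.0 CPM in non-transgenic and 40.1 to 71.8 in P301S libraries. In inhibitory neurons 8 of 9 tested were higher (median 0.29, sums 34.0 to 53.1 against 39.8 to 81.2), and Csf1r and Ctss were at 0 in at least 1 non-transgenic library. Oligodendrocyte markers were higher for 8 of 8 in both classes (medians 0.34 and 0.42, with sums of 149 to 302 against 205 to 261 in excitatory neurons and 123 to 303 against 186 to 321 in inhibitory neurons). Astrocyte markers had medians of -0.01 and 0.11. Among them Gfap, which astrocytes raise in injury, was 0.204 to 0.511 against 0.448 to 1.65 CPM in excitatory neurons (log2 fold change 1.69, adjusted p 0.982) and 0.240 to 0.572 against 0.657 to 2.20 in inhibitory neurons (1.86, adjusted p 0.434). Oligodendrocyte precursor markers were fitted higher for 5 of 5 in both classes (medians 0.16 and 0.18). Of 10 vascular and fibroblast markers, 8 passed the filter in excitatory and 4 in inhibitory neurons, and a low gene can pass through the arm where it is higher. Fitted higher were 6 of the 8 (median 0.32) and 4 of the 4 (0.59). Their sums were 7.68 to 11 against 5.96 to 14.1 CPM and 5.15 to 6.71 against 3.45 to 13.4. The part of free RNA in these UMIs and in the results above was not tested. With nuclei called doublets left out, all 7 excitatory genes and Gm43049 in inhibitory neurons were called.

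**Figure D5:**
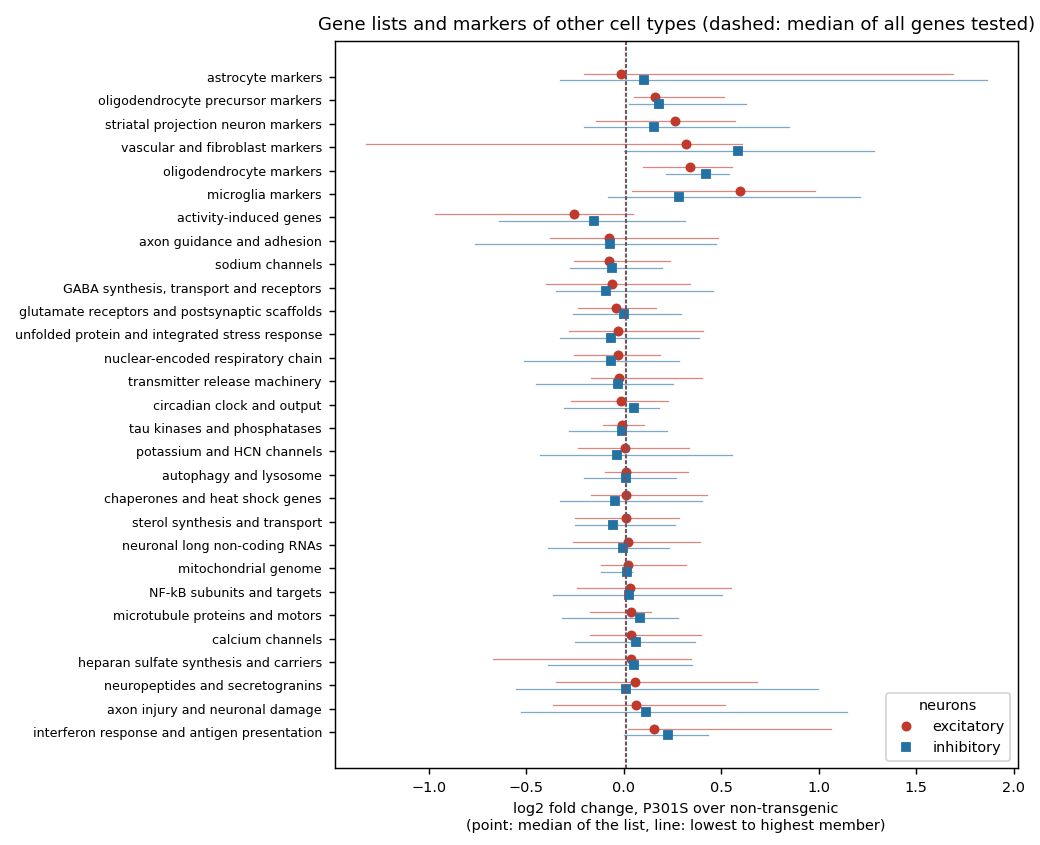
Median log2 fold change (point) and lowest to highest member (line) of each gene list, P301S over non-transgenic (x axis), in excitatory neurons (red circles) and inhibitory neurons (blue squares), with dashed lines at the medians of all genes tested. Most neuronal lists lie close to 0, activity-induced genes reach -0.26 in excitatory neurons, and the microglial, oligodendrocyte, oligodendrocyte precursor, vascular and striatal markers and the interferon genes lie to the right.

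The share of neurons among nuclei did not differ beyond its spread between libraries. Excitatory neurons made up 17.0 to 26.1% of nuclei in non-transgenic and 10.6 to 24.9% in P301S libraries, means 20.4% ± 3.93 (SD, n = 4) and 17.6% ± 4.70 (n = 7), a difference of -2.81 percentage points (exact two-sided permutation p = 0.333 over 330 groupings, where the smallest possible is 0.00303). It ranged from -4.03 to -0.92 when 1 library was left out, with the value nearest 0 without non-transgenic 3 and p never below 0.152 (exact permutation). Within the floxed Ikbkb line the difference was -1.74 (exact permutation p = 0.6) and within the IkbkbCA line -3.85 (0.5), neither of which could reach 0.05. Inhibitory neurons made up 8.73% ± 2.03 (n = 4) and 7.76% ± 1.48 (n = 7), a difference of -0.97 (exact permutation p = 0.391, range of the difference -1.82 without non-transgenic 3 to -0.20 without non-transgenic 1), and -1.72 (0.200) and -0.28 (0.900) within the lines. Fewer neurons and more of other nuclei cannot be told apart in a share. The median UMIs per nucleus were 12473 and 12880 in excitatory neurons (exact permutation p = 0.721) and 8421 and 8962 in inhibitory neurons (p = 0.555). Of the mix of neurons, the shares of Cux2 and Adarb2 nuclei were measured and did not differ beyond their spread. Nuclei with 2 or more UMIs of Cux2 made up 38.7 to 46.2% against 35.6 to 47.8% of excitatory neurons (exact permutation p = 0.542), and those with 2 or more of Adarb2, a marker of interneurons from the caudal ganglionic eminence, 44.9 to 67.3% against 43.4 to 62.9% of inhibitory neurons (p = 0.867). Shares of other interneuron types were not measured. Of 9 hippocampal and thalamic markers, 7 were tested in excitatory and 6 in inhibitory neurons. Fitted higher were 1 of the 7 (median log2 fold change -0.14) and 5 of the 6 (0.44). A low gene can pass the filter through the arm where it is higher. Their sums overlapped, at 51.8 to 63.8 against 48.9 to 61.7 CPM and at 61.9 to 70.5 against 63.3 to 82.0. Striatal markers were fitted higher for 7 of 8 (0.26) and 5 of 8 (0.15). In both lists 0 were called. Among 16 tested markers of interneuron types 4 were fitted higher and 12 lower in inhibitory neurons (median log2 fold change -0.04, none under 0.05 before adjustment). The 9 markers of the inhibitory class include Gad1 and Gad2, which set the gate. Of these 9 markers 8 were fitted lower (median -0.13), and 2 had a p under 0.05 before adjustment. These 2 were Erbb4, the neuregulin receptor (-0.46), and the non-coding RNA Dlx6os1 (-0.39). EdgeR called neither (adjusted p 0.618 and 0.605), and the part of these markers in the other inhibitory results was not tested.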

How the data were processed

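Single-nucleus RNA-seq libraries (10x Genomics 3′ v3) of frozen mouse cortex were used, 1 library per mouse, 7 with P301S+ in the genotype and 4 without it. By the study's methods, nuclei were stained with DAPI and sorted before loading. The authors counted reads with Cell Ranger 3.1.0 against mm10, pre-mRNA included, and deposited raw UMI counts per gene and barcode, which were used as deposited. The study's doublet removal and cell type labels were not applied here.

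Per library, counts were summed over the nuclei of each class. Libraries held 72.0 to 93.2 M UMIs in 7500 to 12315 barcodes. Of 114118 barcodes, 1556 were left out for mitochondrial UMIs and 23 for too many genes. Sums were tested with edgeR 4.0.16 (R 4.3.3) with TMM factors, filterByExpr by arm and glmQLFTest with 1 term for the arm, with Benjamini-Hochberg adjustment over all genes tested. The difference between classes was tested as an interaction with a term per library. Shares were tested by exact two-sided permutation over libraries. DESeq2 1.42.0 was an alternative. Others were another normalization, no filter, genotype, line or age terms, each line alone, other gates, doublets left out, thinning to 3000 UMIs, subsets by Cux2 or Adarb2, and leaving out each library. The fit of other nuclei was added after the files were seen. The edgeR fit of the arm and that of the difference between classes were tested on simulated data. The DESeq2 fit and the fits with other terms were not.

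Named genes were, per class, the called genes with a mean of at least 5 CPM (up to 10 per direction), Prnp and Mapt, and called members of the gene lists. Others were named after their values were seen. The members, rule and lists were chosen with earlier results of these data known. The common biological coefficient of variation was 13.3% in excitatory and 13.8% in inhibitory neurons, and for genes of 20 or more CPM the median half-width of the 95% interval was 0.16 and 0.19 on the log2 scale. Intervals on UMI ratios and floors cover counting error only. Coordinates are mm10 (GENCODE M21, matched by identifier for 31011 of 31053 genes). Promoter sequences are from RefSeq on GRCm38.p6.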

Additional observations from a re-analysis of the deposited data

Results flagged for a closer look

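In 3 cases 1 of the 4 non-transgenic libraries stood apart from the others by Dixon's test, each time the single library with 1 UMI beside 3 libraries at 0. These were Gm32754 (0.0407 CPM) and 4930590L14Rik (0.0396) in excitatory neurons and Gm43049 (0.120) in inhibitory neurons. In all, 62 groups of libraries were tested, and chance flags about 1 in 20 groups, here 3.1.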

How the results depend on the processing

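Of the results on single genes, 676 kept their direction and their side of the threshold under an alternative, 17 passed it, 42 no longer passed it and 2 changed sign. The causes were not tested. Genes called in excitatory neurons (7) became 11 with DESeq2, 3 in the floxed Ikbkb line alone, 6 in the IkbkbCA line alone (of which Col24a1, Lrmda and Col11a1 were not among the 7) and 3 after thinning to 3000 UMIs, and 5 to 8 when 1 library was left out. Those in inhibitory neurons (1) became 10 with DESeq2, 3 without a filter on low counts, 0 in either line alone, 0 after thinning, 2 (Gm43049 and Unc5c) among neurons with at most 1 UMI of Adarb2, and 1 to 2 when 1 library was left out. The line-alone fits hold fewer samples, and thinning leaves fewer UMIs and fewer genes to test. Gm43049 in inhibitory neurons and Haus7 and Rwdd3 in excitatory neurons were still tested in these fits and not called. Calls of a difference between the classes (0) ranged from 0 to 1, the 1 being Cntnap4 without Ikbkb-knockout P301S 2. The difference in median UMIs per excitatory neuron (406) ranged from -161.7 to 761.4 when 1 library was left out and was negative without Ikbkb-knockout P301S 2. Gabra2 in inhibitory neurons changed sign in intact P301S alone (0.0006) and without non-transgenic 4 (0.064), over a range of -0.19 to 0.064 when 1 library was left out. Rwdd3 and Gabra2 lost their calls in excitatory neurons under 15 and 18 of 28 alternatives, always with the same sign. Alpk1 and Gm43049 kept theirs there under all 28. Prn was called under 5, among them no filter and leaving out P301S 1 or P301S 2.

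Whether line and replicate number pair the samples was not settled. Deviations from the arm means correlated over 0.1 in 6 of 7 pairs of excitatory sums that shared both line and number (-0.154 to 0.660). Their mean was 0.287, beside -0.0989 for the other 21 pairs. In inhibitory sums this held for 3 of 7 pairs (-0.468 to 0.525), with means of 0.0398 and -0.0103. The other 21 pairs mix pairs within a line and pairs across lines, so these means do not separate number from line. In excitatory sums, pairs of the same line but another number lay between -0.357 and 0.691, and pairs across lines between -0.717 and 0.326. With line and number as a block, 6 genes were called in excitatory neurons, Gabra2 no longer among them (-0.40, adjusted p 0.052), and 7 in inhibitory neurons. The latter were Gm43049, Zim1, Mef2c, Cntnap4, Unc5c, Cntnap3 and Ephb1.

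Depth limits the low genes most. In inhibitory neurons 4930590L14Rik and Gm32754 were too low to be tested with the filter, and effects below about 0.19 on the log2 scale were within the interval of a typical gene of 20 CPM or more.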
